A study of Homo sapiens with 6 samples.

Results

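The Krüppel-like factors (KLFs) described here are 10 genes of the 16953 in the authors' table: KLF2, KLF3, KLF4, KLF5, KLF6, KLF7, KLF9, KLF10, KLF11 and KLF13. They were chosen by gene symbol, with the fold changes of the same comparison already known, so every fold change and call given for them is a description and supports nothing by itself. RNA was sequenced from 6 samples of wild-type H1048, an established human small cell lung cancer line; 3 samples received 10 µM isovalerylspiramycin I (ISP-I), a macrolide, and 3 the solvent DMSO, each for 48 h. No transgene or other agent is named. The deposited comparison sets libraries D, E and F against A, B and C, and no label says which of these sets received ISP-I. Directions below are therefore those of libraries D to F against libraries A to C, and none is a statement about the drug. Fold changes and p-values are those of the authors' deposited table throughout, without standard errors.

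KLF proteins are transcription factors that bind GC-rich and CACCC sequences through zinc fingers at their carboxyl end, the same DNA that the related SP factors bind. Outside the fingers they differ, and the family is commonly divided by the cofactor each protein recruits: acetyltransferases such as p300 for KLF1, KLF2, KLF4, KLF5, KLF6 and KLF7, the corepressor CtBP for KLF3, KLF8 and KLF12, and the corepressor SIN3A for KLF9, KLF10, KLF11, KLF13, KLF14 and KLF16. Several are induced rapidly by serum, stress or hormones, and they steer growth arrest and differentiation in many epithelia and in endothelium.

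The DNA just upstream of 4 of the genes is shown so that KLF6 and KLF2, which had the largest fold changes among members with such a stretch, can be read beside KLF7 and KLF13, which were not called. The stretches come from RefSeq (GRCh38.p14), run 5′ to 3′ on the gene's own strand, and stop before the first base of the gene in both RefSeq and GENCODE release 29. Capitals mark the GC box GGGCGG, the E-box with the letters CACGTG, the core TGACG of the cyclic AMP response element, the MEF2 motif and the CArG box bound by SRF, each on either strand. KLF6 is at chr10:3785282-3785459 on the minus strand, KLF2 at chr19:16324576-16324816 on the plus strand, KLF7 at chr2:207167268-207167496 on the minus strand and KLF13 at chr15:31326585-31326834 on the plus strand.
KLF6: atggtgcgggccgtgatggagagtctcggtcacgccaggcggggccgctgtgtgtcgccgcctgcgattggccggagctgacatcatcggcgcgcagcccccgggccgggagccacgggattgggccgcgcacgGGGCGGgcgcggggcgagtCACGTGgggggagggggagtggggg
KLF2: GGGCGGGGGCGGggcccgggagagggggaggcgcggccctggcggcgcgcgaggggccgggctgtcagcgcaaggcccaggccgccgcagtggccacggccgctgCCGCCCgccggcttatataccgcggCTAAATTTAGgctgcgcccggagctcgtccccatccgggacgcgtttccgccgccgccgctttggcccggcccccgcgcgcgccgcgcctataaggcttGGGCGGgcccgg
KLF7: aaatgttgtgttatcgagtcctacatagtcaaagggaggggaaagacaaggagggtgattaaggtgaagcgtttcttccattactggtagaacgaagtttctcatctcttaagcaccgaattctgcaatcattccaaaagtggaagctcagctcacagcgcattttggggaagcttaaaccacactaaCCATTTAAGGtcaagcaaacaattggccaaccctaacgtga
KLF13: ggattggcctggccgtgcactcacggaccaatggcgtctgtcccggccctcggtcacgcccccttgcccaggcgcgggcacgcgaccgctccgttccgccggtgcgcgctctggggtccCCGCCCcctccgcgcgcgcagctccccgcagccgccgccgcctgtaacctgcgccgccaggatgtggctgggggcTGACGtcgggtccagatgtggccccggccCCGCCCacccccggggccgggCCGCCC

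The KLF2 stretch had 4 GC boxes and 1 MEF2 motif, and the KLF6 stretch 1 GC box and 1 E-box. The KLF13 stretch had 3 GC boxes and 1 TGACG core, and that of KLF7 had only the CArG box. Among the 4 stretches shown, base composition set KLF7 apart, with 43.2% G or C, from KLF6 (76.4%), KLF2 (79.3%) and KLF13 (78.8%). It did not set KLF7 apart from all called members. The stretches of KLF5 and KLF9, not shown, held less G or C, 40.8% and 32.4%, and 0 GC boxes, and both genes were called higher. A window at a second KLF5 start held 71.3%. The uncalled pair, KLF7 and KLF13, shared neither composition nor the marked motifs in the stretches shown. They did share CACCC, which was not marked. It had 1 match in each of the KLF7 and KLF13 windows that hold these stretches, and 0 in those of KLF2 and KLF6. KLF7 has 4 RefSeq starts, and windows at the others held up to 70.0% G or C.

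The call of a gene required the authors' adjusted p to be under 0.05. By this rule 8 of the 10 KLFs were higher in D to F with 0 lower, where 57.6% of the 15976 genes with an adjusted p were called in either direction, 29.7% higher and 27.9% lower. At least 2-fold higher and called were 7 KLFs, against 12.8% of genes. The median log2 fold change of the 10 was 1.36, against 0.06 for all genes. The members were picked with these values in view, so the shares of all genes are printed as background only. The larger table also holds 6 KLF genes that are not among the 10, and over all 16 the counts were 10 higher, 2 lower and 4 not called, with a median of 1.17.

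**Figure D1:**
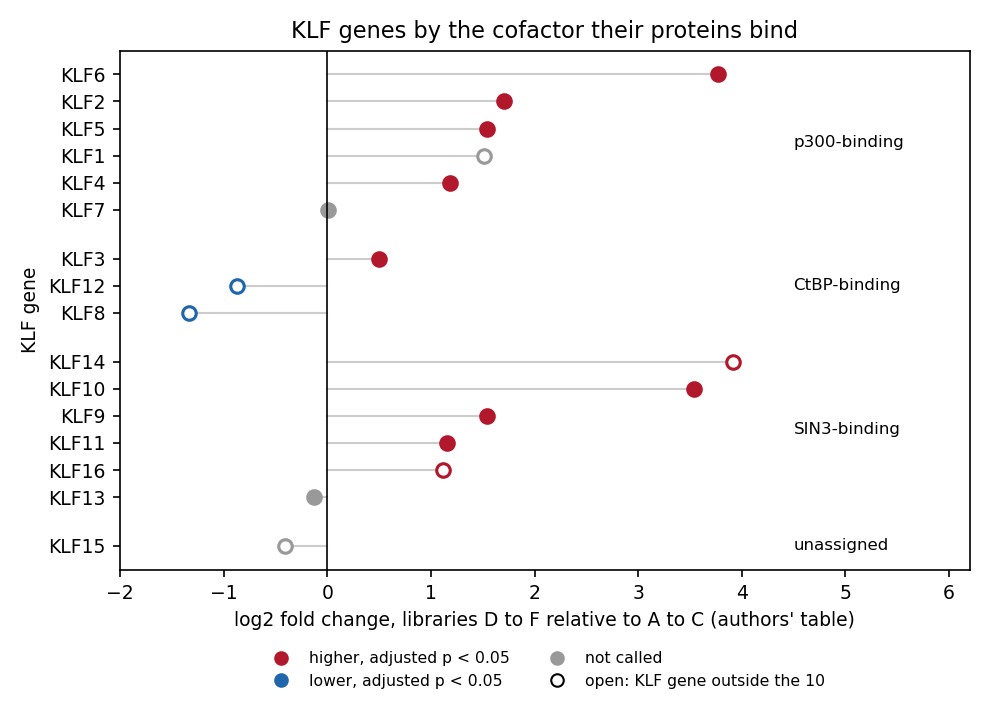
Log2 fold change of the 16 listed KLF genes in the authors' deposited table (x axis), grouped by the cofactor their proteins bind; filled points are the 10 members, open points the other 6, and colour shows the call. KLF6, KLF10 and the open point KLF14 lie beyond 3.5, and the only points called lower, KLF8 and KLF12, are in the CtBP-binding class.

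Among the p300-binding class, 4 of 5 members were higher. KLF6, a broadly expressed factor that restrains proliferation and activates CDKN1A, had the largest difference of the 10, a log2 fold change of 3.77 or 13.6-fold, and its p is listed at 0. It lies on chromosome 10 from 3775996 to 3785281. KLF2, a factor of quiescent endothelium and lymphocytes, was 3.26-fold higher (log2 fold change 1.71, adjusted p = 4.16e-30; chromosome 19, 16324817 to 16327874).

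KLF5, which sustains proliferation in epithelial crypts and basal layers, was 2.91-fold higher (log2 fold change 1.54, adjusted p = 6.59e-43; chromosome 13, 73054976 to 73077542). KLF4, which marks differentiated surface epithelium and is one of the reprogramming factors, was 2.27-fold higher (1.18, adjusted p = 2.83e-23; chromosome 9, 107484852 to 107490482). KLF4 and KLF5 often act in opposite directions on proliferation, and here both were higher. KLF7, known for its part in the growth of sensory neurons, was not called, with a log2 fold change of 0.01 and an adjusted p of 0.968 (chromosome 2, 207074137 to 207167267). The erythroid factor KLF1, which is in this class but not among the 10, had a similar log2 fold change to KLF5, 1.51, and was not called (adjusted p = 0.227).

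KLF3, the 1 member of the CtBP-binding class and a repressor active in blood and fat cells, had the smallest called difference, 1.41-fold higher (log2 fold change 0.49, adjusted p = 7.87e-05; chromosome 4, 38664196 to 38701042). The other genes of this class were lower in libraries D to F. KLF12 had a log2 fold change of -0.87 (adjusted p = 9.14e-11) and KLF8 one of -1.33 (adjusted p = 0.00593). The CtBP-binding genes were thus divided in direction, which the choice of the 10 does not show.

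Among the SIN3-binding class, 3 of 4 members were higher. KLF10, first described as an early gene induced by TGF-beta, was 11.6-fold higher (log2 fold change 3.54; chromosome 8, 102648779 to 102655902), and its p was the smallest above 0 in the table, 1.46e-295. KLF9, a factor induced by glucocorticoids and thyroid hormone, was 2.91-fold higher (1.54, adjusted p = 2.44e-26; chromosome 9, 70384597 to 70414624). KLF11, the closest relative of KLF10, was 2.23-fold higher (1.16, adjusted p = 4.15e-30; chromosome 2, 10042849 to 10054836), far less than KLF10.

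KLF13, a relative of KLF9 that activates the chemokine CCL5 in T cells, was not called (log2 fold change -0.13, adjusted p = 0.683; chromosome 15, 31326855 to 31435665). Outside the 10, KLF16 was 2.16-fold higher (1.11, adjusted p = 5.91e-24). KLF14 had the largest fold of any KLF gene, 15.1-fold (3.92), with a far larger adjusted p of 0.0247. KLF15, which is in none of these classes, was not called (-0.41, adjusted p = 0.217). Differences between members were not tested, because the table gives no standard error.

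Set among all genes with an adjusted p and ordered by log2 fold change, KLF6 was at rank 393 and KLF10 at rank 465, with 97.5% and 97.1% of genes below them. KLF2 had 89.5% of genes below it, KLF9 and KLF5 88.3% each, KLF4 83.9% and KLF11 83.6%. These 5 were therefore higher by amounts that more than 1 gene in 10 matched or exceeded. KLF3 had 67.3% below it, KLF7 48.6% and KLF13 42.4%, close to the middle of the distribution.

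**Figure D2:**
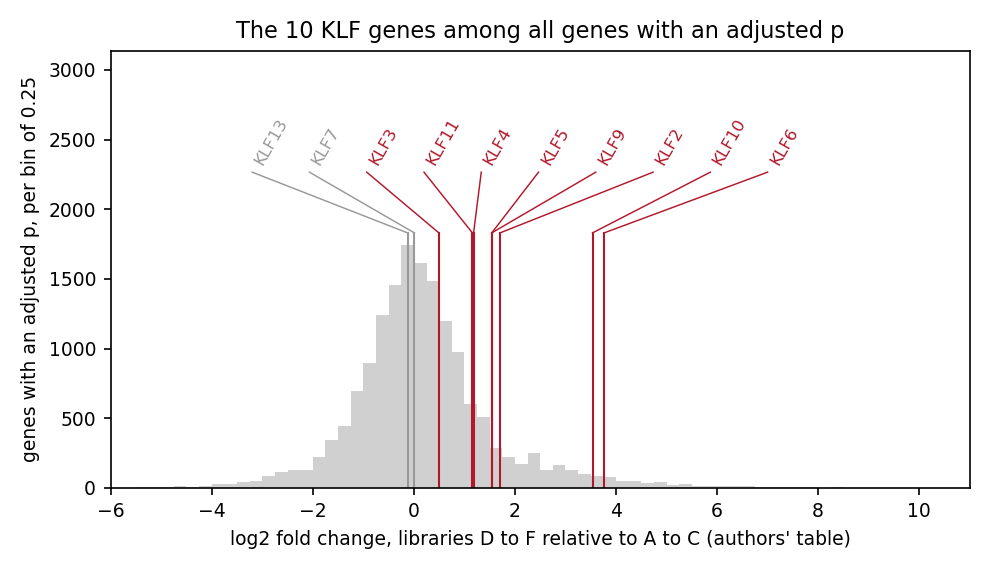
Histogram of the log2 fold changes of the 15976 genes with an adjusted p (x axis; y axis, genes per bin of 0.25), with a line at each of the 10 KLFs, red where called higher and grey where not called. KLF6 and KLF10 stand in the upper tail, 5 KLFs lie between 1.16 and 1.71, and KLF7 and KLF13 lie at the centre.

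The genes around these factors were taken from lists made with earlier results of this comparison known, so their counts are descriptions too. In the authors' deposited table, among cofactor genes, 5 of 9 were lower in D to F and 1 was higher, beside 27.9% of all genes lower and 29.7% higher. The median log2 fold change was -0.24 against 0.06 over all genes. The lower genes were corepressor parts: SIN3A, the scaffold that KLF9, KLF10 and KLF11 bind, was 2.40-fold lower (log2 fold change -1.26, adjusted p = 6.87e-25), its paralogue SIN3B had a log2 fold change of -0.58, and the deacetylase HDAC1 that both recruit one of -0.92. The CtBP genes were also lower, CTBP1 at -0.81 and CTBP2 at -0.24 (adjusted p = 0.0237). The deacetylase HDAC2 was higher (0.39). The acetyltransferase genes EP300 (0.11), CREBBP (0.09) and KAT2B (0.02) were not called.

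Of 7 genes in the authors' deposited table that act upstream of KLF2 and KLF4 or degrade KLF proteins, 3 were higher and 1 lower, beside 29.7% and 27.9% of all genes. The median log2 fold change was 0.11, near the 0.06 over all genes, in a list of only 7. The 3 higher genes were all MEF2 genes, so the median does not describe them. In endothelium, the kinase ERK5, encoded by MAPK7, induces KLF2 and KLF4 through MEF2 factors. MEF2D was 3.13-fold higher (log2 fold change 1.65, adjusted p = 2.86e-40), MEF2C 2.55-fold (1.35) and MEF2A 1.75-fold (0.81). MAPK7 itself was lower (-0.76, adjusted p = 6.29e-06), and its activating kinase MAP2K5 was not called (0.11). The ubiquitin ligase genes WWP1 (0.11) and FBXW7 (-0.12), whose products mark KLF proteins for degradation, were not called.

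Of 7 genes known as KLF targets in other cells, the authors' deposited table gives 5 as higher and 0 as lower, beside 29.7% and 27.9% of all genes. The median log2 fold change was 2.50, against 0.06 over all genes. The cell cycle inhibitor CDKN1A, which KLF4 and KLF6 activate, was 5.65-fold higher (log2 fold change 2.50, adjusted p = 2.01e-184). Among the endothelial targets of KLF2, the nitric oxide synthase NOS3 was 10.0-fold higher (3.33, adjusted p = 1.22e-09) and thrombomodulin THBD 8.36-fold higher (3.06, adjusted p = 0.0184), while the lipid receptor S1PR1 was not called at 4.12 (adjusted p = 0.0507). SMAD7, a TGF-beta feedback inhibitor that KLF10 and KLF11 repress in other cells, was higher (0.85, adjusted p = 1.04e-06), as was CCND1 (0.67, adjusted p = 6.88e-07). The clock gene ARNTL, a KLF10 target in liver, was not called (-0.12). The list pools targets that KLFs activate, such as CDKN1A, with targets that they repress, such as SMAD7. Its count of higher genes therefore has no single direction to be read against. Most of these genes answer to many factors, and a link to the KLFs was not tested.

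**Figure D3:**
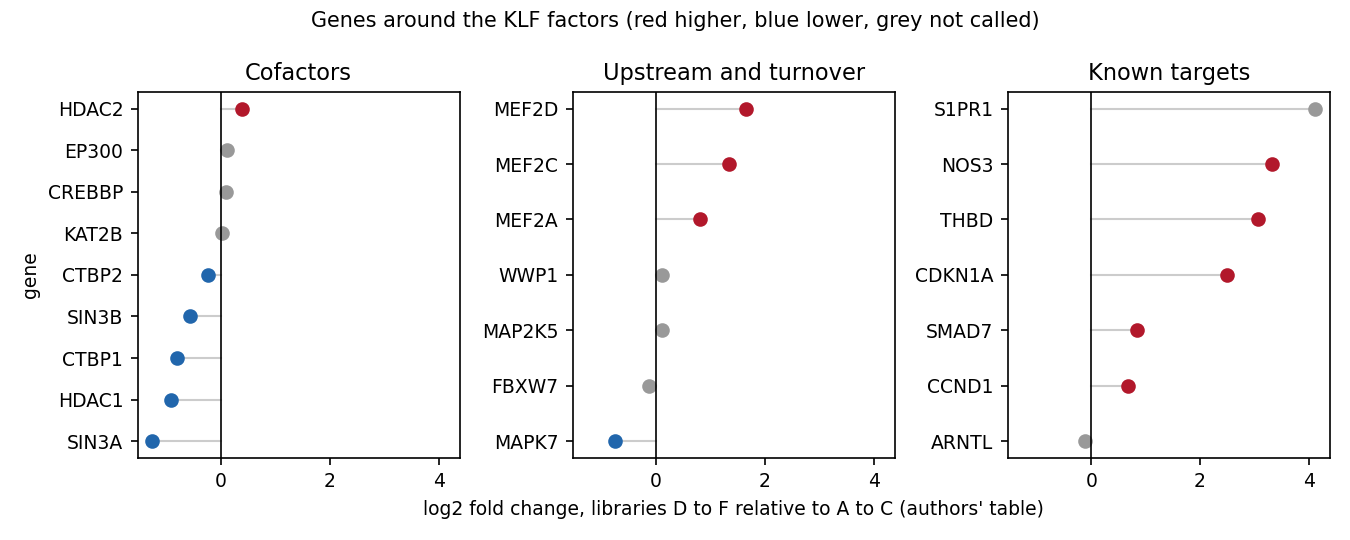
Log2 fold change in the authors' deposited table (x axis, shared) for 9 cofactor genes, 7 genes upstream of KLFs or in their turnover, and 7 known targets; red is called higher, blue called lower, grey not called. The cofactors called lower reach -1.26 (SIN3A), the MEF2 genes are all called higher, and S1PR1 is uncalled in spite of the largest fold shown.

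Of the 10 genes, 8 had RefSeq promoter windows, 13 in all, each 250 bases before and 50 after a start. Their median content of G and C was 70.0%, against 58.7% over all 35116 windows. GC boxes (GGGCGG) were in 8 of the 13 windows, or 61.5%, against 45.0% of all windows, and CACCC in 7, or 53.8%, against 59.9%. The KLFs' own kind of binding sequence was therefore common both in their windows and in all windows.

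E-boxes (CACGTG) were in 4 of the 13 windows (30.8%, against 7.26% of all), those of KLF4, KLF6, KLF7 and KLF11. A TGACG core was in the windows of KLF4, KLF5, KLF11 and KLF13 (30.8%, against 24.6%), and at KLF11 it was part of a complete TGACGTCA element, found in 1.85% of all windows. The MEF2 motif was in the KLF2 window only (0.572% of all windows), and the CArG box in a KLF7 window only (1.29%). The AP-1 motif TGANTCA was in 0 of the 13 and in 7.71% of all. Both strands were searched, and a core inside the complete element was counted for both. Window composition differs between genes and was not matched, and a match of letters is not evidence of binding.

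Short-lived mRNAs of early response genes often carry ATTTA pentamers in the 3′ UTR. Each of the 10 KLF transcripts examined had at least 1 (GENCODE release 29, 1 principal transcript per gene), as did 67.6% of 15583 genes with an adjusted p. Their 3′ UTRs ran from 843 bases (KLF2) to 7076 bases (KLF7), against a median of 1014 over these genes, and KLF2 and KLF4 (899 bases) were below it. Per kb, 9 of the 10 lay above the median of all genes, 1.52. The share of genes with a lower density ran from 39.6% for KLF13 to 79.9% for KLF2, so none was near either end. For KLF6 it was 53.0% and for KLF10 61.4%. KLF2 had 3.56 pentamers per kb, KLF5 3.02 and KLF7 2.83. KLF10 had 2.22 and KLF6 1.69, so the pair with the largest fold changes was not the densest.

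KLF13 had the lowest density, 0.893. Only the transcript strand was searched here. The longer nonamer TTATTTATT was in 1 of the 10, KLF5, against 8.07% of all genes.

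**Figure D4:**
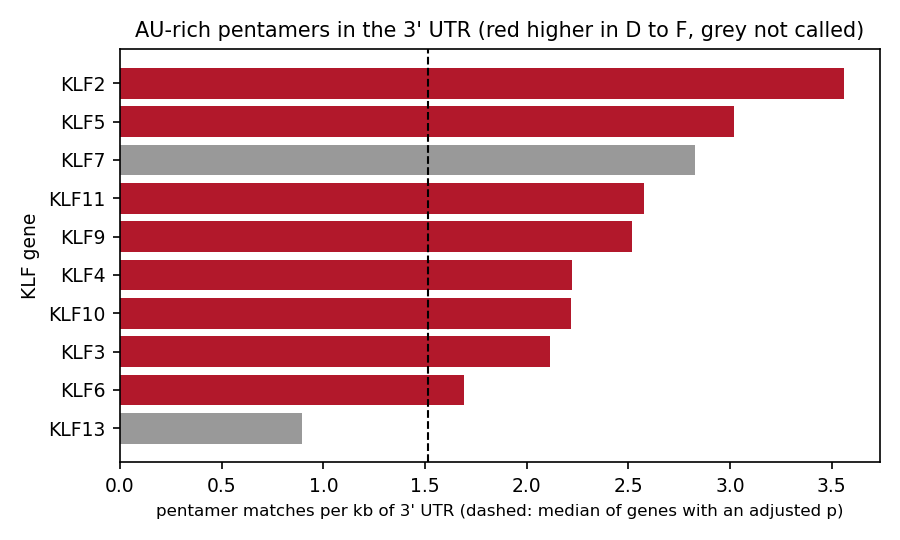
ATTTA matches per kb of 3′ UTR (x axis) for 1 transcript of each of the 10 KLFs; red bars are genes called higher in libraries D to F, grey bars genes not called, and the dashed line is the median of all genes with an adjusted p, 1.52. The bars run from 0.893 (KLF13) to 3.56 (KLF2), and the order does not follow the fold changes.

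Some of these values have limits in how reads are assigned. KLF2 has 4 pseudogenes named after it in GENCODE release 29, KLF3 has 2, and KLF4 and KLF7 have 1 each, which may take or give reads. KLF3 overlaps the antisense gene KLF3-AS1 over 688 bases at its start, and KLF11 overlaps an antisense gene over 416 bases at its end. The uncalled members overlap genes on their own strand, KLF7 with KLF7-IT1 over 1161 bases and MIR2355 over 87. KLF13 overlaps the processed pseudogene UBE2CP4 over 535 bases. KLF7 also overlaps MIR7845 on the opposite strand over 99 bases. All are overlaps of gene spans, introns included. The sources used here do not give whether the counting used strand, so reads from the opposite-strand stretches cannot be told apart. On the same strand, stranded counting would not separate them.

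The label of the line could be checked only through fold changes, not levels. Of 7 tuft cell markers, which H1048 is known for, 3 were lower (POU2F3, AVIL and SOX9) and 1 was higher (GFI1B), where 27.9% of all genes were lower and 29.7% higher; the same shares apply to the markers that follow. Because KLF2, KLF4, NOS3 and THBD are also endothelial genes, markers of other cells stand beside them. Of 3 listed endothelial markers (CDH5, CLDN5, TEK) 0 were called, with log2 fold changes from -3.67 to 1.52. Of 4 leukocyte markers 1 was higher, LYZ, at 4.90. All 3 fibroblast markers with an adjusted p were lower, COL1A1 (-0.57), PDGFRA (-1.91) and POSTN (-3.97), and COL1A2 had no adjusted p. The part of these markers in the KLF values was not tested. In bulk RNA, fewer cells of a type and less RNA per cell cannot be told apart.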

How the data were processed

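RNA from H1048 cells (3 ISP-I and 3 DMSO samples) was sequenced as paired ends. Per the submitters' processing notes, the tools were DESeq2, HTSeq, STAR and Trimmomatic and the build was hg38; the sources used here give neither versions nor annotation nor strandedness. The authors deposited, for each gene, a log2 fold change, and per the file headers its p-value and its adjusted p-value, named as DESeq2 names them. The headers do not say over which genes the adjustment ran. Whether fold changes were shrunken is not given. The order of the sets in the table's name was taken to make a positive value higher in D to F.

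Since library letters appear in no sample label, 36 columns of values per library were not used. Depth, levels, means and the spread between replicates are therefore not given, and the planned count test was replaced by the authors' values. The p-values are theirs and measure the spread between samples that the series calls biological replicates. The smaller deposited table (4021 genes) holds 7 of the 10 KLFs.

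An adjusted p of exactly 1 (977 genes) was treated as none. Members and lists were chosen with earlier results of these data known. All members were named; from each list up to 4 genes by smallest p and every gene not called were named, and HDAC2, CTBP2, THBD and the marker genes were added after their values were seen. Coordinates are from GENCODE release 29 (GRCh38), 1-based. One transcript per gene was taken by APPRIS rank, then longest coding sequence. The Benjamini-Hochberg and motif steps were tested on simulated data. Python 3.11.15, pandas 2.3.3, numpy 2.4.6, scipy 1.17.1 and matplotlib 3.10.9 were used. Alternatives were a threshold of 0.01, adjustment over every listed p, centring on the median and a 4-fold limit.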

Additional observations from a re-analysis of the deposited data

How the results depend on the processing

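The count of 8 KLFs higher and 0 lower was the same at an adjusted p under 0.01 and with the adjustment taken over every listed p. It was also the same after subtracting the median of all genes, 0.06, from the fold changes. These settings could hardly have changed it. Among the 8, KLF3 had the largest adjusted p, 7.87e-05, and the smallest log2 fold change, 0.49. The unchanged count therefore says little about robustness. The 7 members at least 2-fold higher became 2, KLF6 and KLF10, with a limit of at least 4-fold. Centring turned the sign of 2 uncalled genes, KLF7 (-0.054) and KAT2B (-0.045). At an adjusted p under 0.01 the calls of KLF14, CTBP2 and THBD ended. No paired analysis was possible because the comparison table carries no value for any labelled replicate. The other normalization, the filter on low counts and the omission of single replicates were not run, since the columns per library, which no label ties to a sample, were left unused. Levels were not used, so the reads behind the folds of KLF14, THBD and S1PR1 are unknown here.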

Other observations

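The SP factors are the other branch of this zinc finger family. In the authors' deposited table, among SP genes, 3 of 9 were higher in libraries D to F, 1 was lower and 5 were not called, where 29.7% of all genes with an adjusted p were higher and 27.9% lower. The median log2 fold change was 0.38, against 0.06 over all genes. The share higher was near that of all genes and the share lower was smaller, in a list of only 9. SP1, the widely expressed activator at GC boxes, was the gene lower (-0.56, adjusted p = 2.94e-06). Its close relatives SP3 (0.40, adjusted p = 7.66e-05) and SP2 (0.38, adjusted p = 0.0036) were higher. SP9, a factor of limb and forebrain development, was 2.94-fold higher (1.56, adjusted p = 0.000473). SP4 (0.19), SP5 (-0.73), SP6 (0.96), SP7 (1.49) and SP8 (0.11) were not called. The log2 fold change of SP9 was below that of KLF2 (1.71) but slightly above those of KLF5 and KLF9 (1.54 each). It also exceeded those of KLF4, KLF11 and KLF3. SP1, SP2 and SP3 were below KLF3 (0.49), the smallest called member. Whether SP and KLF genes differ was not tested.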
